A study of Mus musculus with 15 samples.

Results

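The hedgehog genes described here are Shh, Ptch1, Smo, Gli1, Gli2, Gli3, Hhip, Foxf1 and Gas1, taken by symbol from gene tables of the embryonic mouse lung; all 9 were found among the 23420 genes listed. RNA sequencing covered 15 libraries in 5 groups of 3, all from wildtype CD1 mice, an outbred strain. Lungs explanted at embryonic stage E12.5 were cultured for 48 h at high pressure or at low pressure, the pressure being that across the airway wall, and other lungs were taken fresh at stages E12.5, E13.5 and E14.5. Per the labels' protocols each low pressure and E12.5 library came from a pool of 6 lungs, and each high pressure, E13.5 and E14.5 library from a pool of 3. The labels do not say whether replicates came from separate litters or cultures, so the p-values measure the spread between these pools alone, and the number of lungs per pool differed between high and low pressure.

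In hedgehog signalling a secreted ligand binds the receptor Patched and thereby frees Smoothened to signal, which turns Gli transcription factors towards activation of their target genes. In the embryonic lung the airway epithelium makes the ligand Sonic hedgehog, and the surrounding mesenchyme carries most of the response. The pathway is known there for its roles in mesenchymal growth, in branching and in the formation of airway smooth muscle.

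Shh encodes the ligand, and Hhip a membrane protein that binds and sequesters it. Ptch1 encodes the receptor, Gas1 a co-receptor anchored in the membrane, and Smo the Smoothened transducer. Gli1 is mainly an activator, Gli2 is the main activator acting early in the response, and Gli3 acts largely as a repressor when the ligand is absent. Foxf1 encodes a forkhead transcription factor of lung mesenchyme and is a known target of Sonic hedgehog there. Ptch1, Gli1 and Hhip are themselves transcribed in response to the pathway, whereas Gas1 is known in mouse embryos to be repressed by it.

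On build mm10 (GRCm38), the build named in the submitters' processing notes, with the GENCODE M21 annotation, the genes lie on 6 chromosomes. Shh spans chr5:28456815-28467256, Smo chr6:29735503-29761365, Gli1 chr10:127329882-127341974 and Gli2 chr1:118834132-119053619. Ptch1 (chr13:63508328-63573598), Gas1 (chr13:60174405-60177365) and Gli3 (chr13:15463235-15730026) share chromosome 13. Hhip (chr8:79965851-80058006) and Foxf1 (chr8:121084386-121088144) share chromosome 8. Shh is overlapped over 8983 bases by the antisense gene 9530036O11Rik, which has a row of its own with 0 to 58 counts per library. Over 9584 bases Gli1 is overlapped by the antisense gene Gm47200, and over 3759 bases Foxf1 by Gm20388 on its own strand. Reads of the antisense overlaps cannot be assigned with certainty, because the strand setting of the counting was not stated. For Foxf1 the strand would not help, as Gm20388 covers its whole span of 3.759 kb on the same strand. There the assignment depends on the annotation used for counting, which was not stated either.

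The promoters of 4 members that differed between the pressures are shown to set the 3 that were lower at high pressure (Ptch1, Gli2 and Gli3) beside the 1 that was higher (Gas1). Each is the 250 bases before the transcription start of the RefSeq gene (GRCm38.p6), written 5′ to 3′ on the gene's strand, with the letters CCACCC or their reverse complement GGGTGG in capitals. The Ptch1 start of RefSeq lies 7863 bases inside the GENCODE gene.
Ptch1 promoter, chr13:63565736-63565985, minus strand: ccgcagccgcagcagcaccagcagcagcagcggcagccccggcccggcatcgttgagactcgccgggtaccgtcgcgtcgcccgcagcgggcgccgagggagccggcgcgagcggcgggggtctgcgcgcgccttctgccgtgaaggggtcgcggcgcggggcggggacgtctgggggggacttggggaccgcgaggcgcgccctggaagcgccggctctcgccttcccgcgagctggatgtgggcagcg
Gli2 promoter, chr1:119053620-119053869, minus strand: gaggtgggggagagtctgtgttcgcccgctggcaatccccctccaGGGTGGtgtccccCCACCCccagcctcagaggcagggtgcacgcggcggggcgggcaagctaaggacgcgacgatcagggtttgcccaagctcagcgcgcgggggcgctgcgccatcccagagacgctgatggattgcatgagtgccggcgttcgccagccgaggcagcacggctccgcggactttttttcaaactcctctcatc
Gli3 promoter, chr13:15463473-15463722, plus strand: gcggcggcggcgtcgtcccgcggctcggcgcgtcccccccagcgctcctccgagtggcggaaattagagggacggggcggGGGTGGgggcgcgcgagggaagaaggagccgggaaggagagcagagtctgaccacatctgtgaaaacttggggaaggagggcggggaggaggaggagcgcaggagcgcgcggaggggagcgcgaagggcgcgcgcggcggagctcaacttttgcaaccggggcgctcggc
Gas1 promoter, chr13:60177536-60177785, minus strand: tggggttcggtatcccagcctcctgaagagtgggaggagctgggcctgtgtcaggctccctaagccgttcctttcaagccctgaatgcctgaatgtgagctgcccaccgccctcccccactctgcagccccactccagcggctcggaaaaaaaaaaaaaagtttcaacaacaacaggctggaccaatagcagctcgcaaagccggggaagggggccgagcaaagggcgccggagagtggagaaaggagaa

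The motif searched was GACCACCCA, the letters that Gli factors are known to bind, with its reverse complement TGGGTGGTC; CCACCC is its core and lies within it. RefSeq entries were matched for 6 of the 9 members (Ptch1, Gas1, Smo, Gli2, Gli3 and Hhip). None of these 6 windows held the full motif, which 0.225% of 32851 mouse promoter windows of the same length held on either strand, and none held it with at most 1 mismatch, against 5.79% of all windows. The core stood 2 times in the Gli2 window, 1 time each in those of Gli3, Smo and Hhip and 0 times in those of Ptch1 and Gas1, and 28.1% of all windows held it at least once. A match is a string of letters and not a binding site, and its absence says only that these letters are not in that window.

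Library totals were 40167255 to 44341263 counts at high pressure, 31843739 to 38288861 at low pressure and 18837343 to 21955244 in the freshly isolated lungs. Replicate 3 of low pressure had counts for 14637 genes, against 16509 to 16726 in the other cultured libraries. In the freshly isolated lungs replicate 1 stood apart from replicates 2 and 3 at each stage: ribosomal protein genes took 3.59%, 4.01% and 4.36% of counts in replicate 1 of E12.5, E13.5 and E14.5, and 1.77% to 2.24% in replicates 2 and 3. These genes took 3.06% to 3.36% at high pressure and 1.93% to 2.20% at low pressure. Levels are given as CPM, read counts scaled to the library totals, and fold changes are log2 estimates of edgeR with Benjamini-Hochberg adjusted p-values over all genes tested, called at 0.05. In whole lungs, fewer cells of a type and less RNA per cell cannot be told apart.

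High and low pressure cultures were compared to find how the hedgehog genes differed with the pressure across the airway wall. At high pressure 5 of the 9 genes were lower (Foxf1, Gli3, Ptch1, Gli1 and Gli2), 1 was higher (Gas1), and Shh, Hhip and Smo did not pass the test. The background in this comparison was 26.1% of 14937 genes called, with 14.0% higher and 12.2% lower. The median log2 fold change was -0.57 over the 9 genes and 0.01 over all genes tested. In this comparison a gene that fell or rose was lower or higher at high than at low pressure, which is not a change over time. High and low pressure libraries did not overlap for 7 of the 9 genes, which was so for 46.8% of all genes tested (25.0% higher and 21.8% lower at high pressure).

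The ligand gene and its sequestering partner were at similar levels in both cultures. Shh had 58.0, 54.8 and 46.0 CPM at high pressure, against 57.6, 54.2 and 60.4 CPM at low pressure. Apart from replicate 3 of high pressure, which was lowest, the Shh libraries of both groups lay within a narrow band. The Shh log2 fold change was -0.12, with an interval (95%) of -0.38 to 0.14 and an adjusted p of 0.485 by edgeR. Hhip had 86.1, 86.7 and 85.1 CPM at high pressure, against 93.8, 78.4 and 101 CPM at low pressure. All 3 high pressure libraries of Hhip lay inside the range of the low pressure ones. Its log2 fold change was -0.08 (interval -0.33 to 0.16, edgeR adjusted p = 0.609), and it turned to 0.28 with an adjusted p of 0.0922 when GC content and gene length were allowed for.

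The receptor gene and its co-receptor differed in opposite directions. Ptch1 had 191, 147 and 182 CPM at high pressure, against 299, 348 and 282 CPM at low pressure. Every high pressure library was below every low pressure library. The Ptch1 log2 fold change was -0.84 (SE 0.13, edgeR adjusted p = 0.00302). Gas1 had 109, 119.7 and 123 CPM at high pressure, against 83.8, 94.97 and 78.2 CPM at low pressure. Here every high pressure library was above every low pressure one. Gas1 was higher by 0.46 on the log2 scale (SE 0.10, edgeR adjusted p = 0.0131). The Gas1 call was lost without replicate 2 (0.44, adjusted p = 0.0599) or replicate 3 (0.41, adjusted p = 0.0701) of high pressure, and with GC content and length allowed for (0.29, adjusted p = 0.0708).

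Smo, the transducer, had 284, 271 and 278 CPM at high pressure, against 289.9, 317 and 369 CPM at low pressure. The groups did not overlap, but the lowest low pressure library was close to the highest high pressure library, and replicate 3 of low pressure stood highest. The Smo log2 fold change was -0.23 (SE 0.10, interval -0.47 to 0.01) and did not pass the edgeR test (adjusted p = 0.141); it passed with GC content and length allowed for (-0.32, adjusted p = 0.0226). Without each library in turn the Smo value ran from -0.30 to -0.13 and did not pass, with -0.13 without replicate 3 of low pressure.

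All 3 Gli genes were lower at high than at low pressure. Gli1 had 38.0, 28.4 and 39.5 CPM at high pressure, against 58.9, 64.2 and 51.0 CPM at low pressure. The Gli1 groups were separate, with replicate 2 lowest among the high pressure libraries and highest among the low pressure ones. Its log2 fold change was -0.72 (SE 0.15, edgeR adjusted p = 0.0106). Gli2 had 42.2, 39.0 and 44.0 CPM at high pressure, against 58.6, 59.1 and 68.2 CPM at low pressure. Both Gli2 groups were tight and did not overlap. Gli2 fell by 0.57 on the log2 scale (SE 0.11, edgeR adjusted p = 0.00643). Gli3 had 140.2, 133 and 137 CPM at high pressure, against 228, 223 and 298 CPM at low pressure. Its high pressure libraries differed little among themselves, while replicate 3 of low pressure stood above the other 2. Gli3 fell by 0.87 on the log2 scale (SE 0.12, edgeR adjusted p = 0.00226). Without replicate 3 of low pressure, the library with the fewest genes detected, the log2 fold changes were -0.80 for Gli1, -0.50 for Gli2 and -0.72 for Gli3, each still called. In a fit of all 15 libraries, whose spread also comes from the fresh lungs, the calls were lost for Gli1 (adjusted p = 0.218), Gli2 (adjusted p = 0.111), Gli3 (adjusted p = 0.127) and Gas1 (adjusted p = 0.22) and held for Ptch1 and Foxf1.

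The target Foxf1 showed the largest change of the 9 genes. Foxf1 had 143, 149.8 and 150.2 CPM at high pressure, against 406, 378 and 261 CPM at low pressure. The 3 high pressure libraries were nearly equal, and the lowest low pressure library, replicate 3, was still well above them. Foxf1 fell by 1.24 on the log2 scale (SE 0.16, edgeR adjusted p = 0.0015). Without replicate 3 of low pressure the fold change was -1.41, and over all libraries left out in turn it lay between -1.41 and -1.11 with the call kept.

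**Figure D1:**
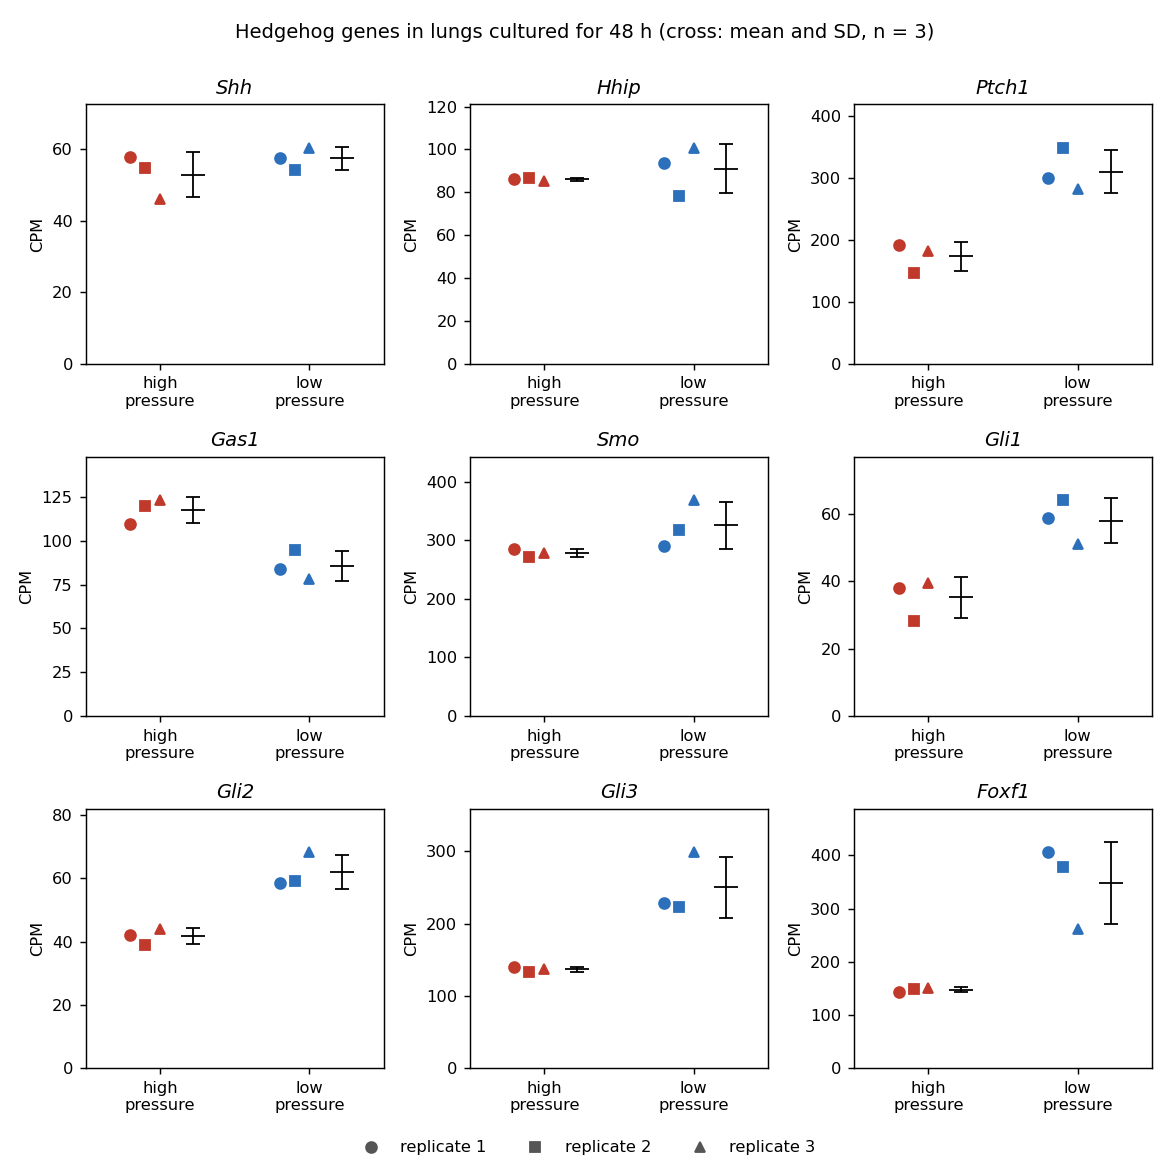
Level of each hedgehog gene in the cultured lungs (y axis, CPM from 0; high pressure left in red, low pressure right in blue; each point 1 library, its shape the replicate number; cross and bars, mean and SD of 3). Foxf1, Gli3, Ptch1, Gli1 and Gli2 lay lower in all 3 high pressure libraries, Gas1 lay higher, and the Shh and Hhip libraries of both pressures overlapped.

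A list of 27 other genes of the pathway was tested as well, except Dhh, a second ligand gene, whose counts were too low. Of the 26 tested, 4 were higher and 1 lower at high pressure. This is a smaller share than the 26.1% of all 14937 genes called (14.0% higher and 12.2% lower). The 21 others had log2 fold changes of -0.49 to 0.42, and the list's median was -0.0043. Gsk3b, a kinase that marks Gli proteins for processing, fell by 0.59 on the log2 scale (edgeR adjusted p = 0.00201).

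Among the genes that were higher, Scube2, whose secreted product helps release the ligand from the cell, averaged 17.8 ± 2.13 CPM at high pressure and 6.20 ± 2.52 CPM at low pressure (SD, n = 3 each). Scube2 rose by 1.52 on the log2 scale (SE 0.27, edgeR adjusted p = 0.00516). Lrp2, an endocytic receptor that can bind Sonic hedgehog, rose by 0.82 (edgeR adjusted p = 0.00746). Prkaca, the catalytic subunit of the kinase that phosphorylates Gli proteins, rose by 0.48, and Spop, an adaptor for the breakdown of Gli proteins, rose by 0.44 (edgeR adjusted p = 0.00746 and 0.0214).

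A list of 13 further genes, known as targets of hedgehog signalling in one tissue or another, had 7 lower, 2 higher and 4 not passing. Of all 14937 genes tested, 12.2% were lower and 14.0% higher. The list's median log2 fold change was -0.49. The 4 that did not pass (Foxf2, Osr1, Ccnd1 and Wnt2) had log2 fold changes of -0.49 to -0.28. Foxc1, a forkhead factor of mesenchyme and vessels, had 5.37, 9.80 and 9.65 CPM at high pressure, against 33.6, 49.4 and 44.3 CPM at low pressure. Its 2 groups were far apart in every library. Foxc1 fell by 2.36 on the log2 scale (SE 0.25, edgeR adjusted p = 0.000951), and its relative Foxc2 by 1.53 (SE 0.27, edgeR adjusted p = 0.005).

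Foxl1, another mesenchymal forkhead factor, fell by 0.75 (edgeR adjusted p = 0.0294). Myocd, a coactivator of smooth muscle genes, averaged 14.02 ± 1.501 CPM at high pressure and 27.8 ± 0.200 CPM at low pressure (SD, n = 3 each), and fell by 0.99 on the log2 scale (edgeR adjusted p = 0.00158). Mycn, Bcl2 and Ccnd2 fell by 0.72, 0.51 and 0.41 (edgeR adjusted p = 0.0122, 0.0241 and 0.0255). The 2 genes that were higher encode signals of the growing bud tip. Fgf10, a mesenchymal ligand that Sonic hedgehog is known to restrict in the mouse lung, averaged 42.3 ± 4.91 CPM at high pressure and 25.6 ± 3.41 CPM at low pressure (SD, n = 3 each), and rose by 0.73 (edgeR adjusted p = 0.0079). Bmp4 rose by 0.41 (edgeR adjusted p = 0.0471). With the replicate number as a block in the fit, the calls for Bmp4 and Ccnd2 were lost (edgeR adjusted p = 0.0653 and 0.0541).

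**Figure D2:**
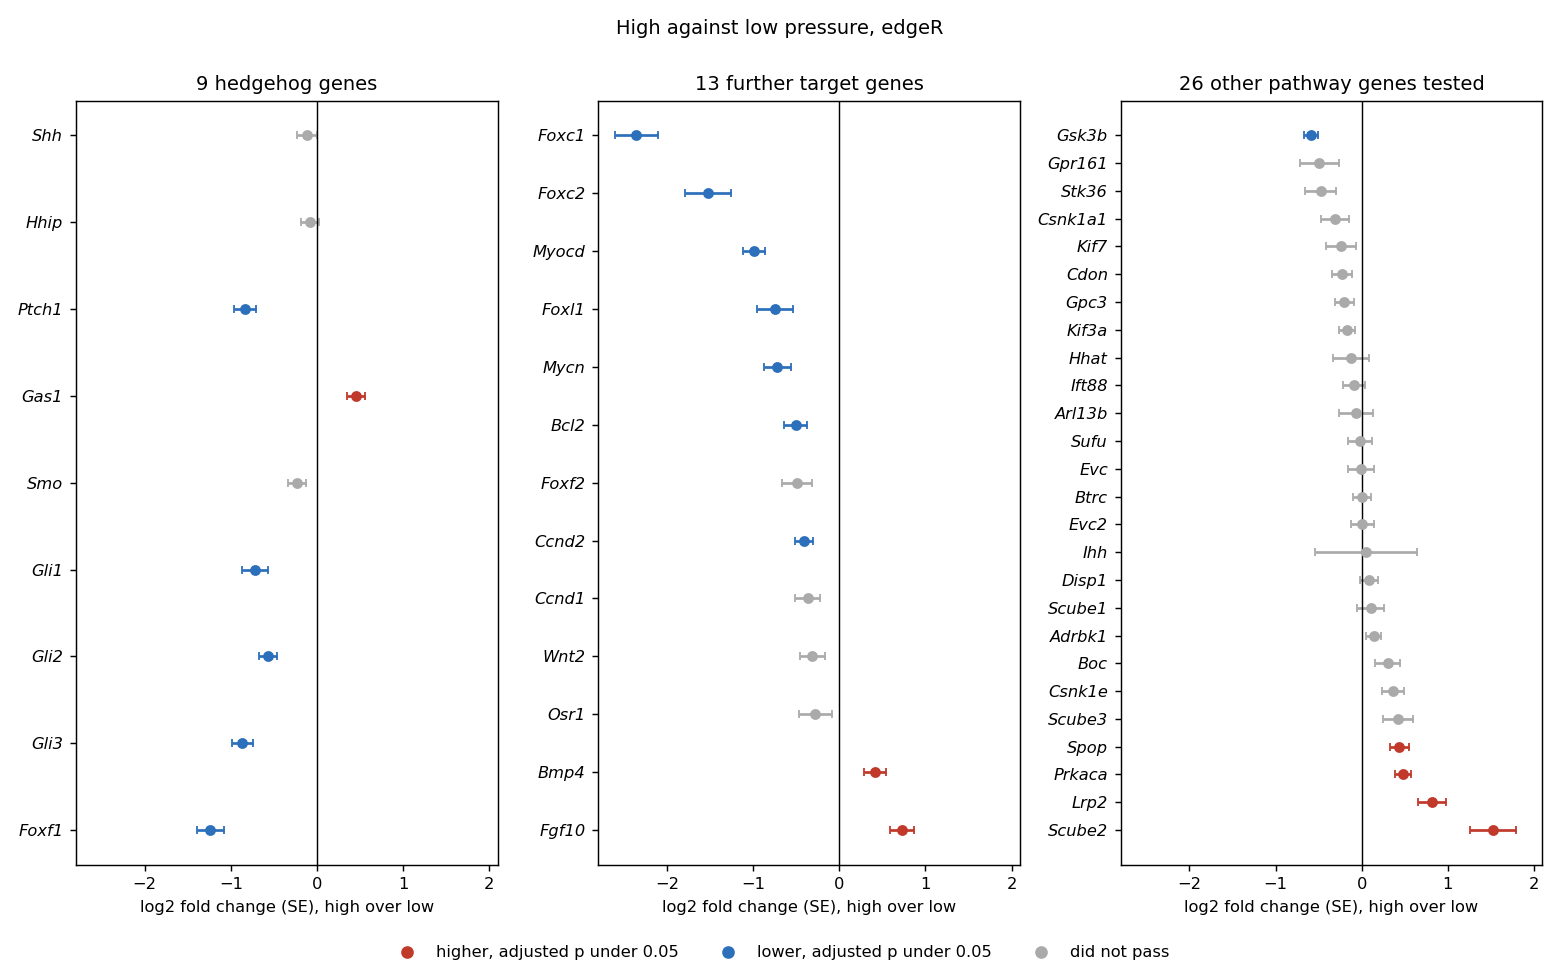
Log2 fold change of high over low pressure with its SE (x axis) for the 9 hedgehog genes, 13 further target genes and 26 other pathway genes tested; red and blue points passed the edgeR test as higher and lower, grey ones did not. The targets run to -2.36 (Foxc1) and the other pathway genes from -0.59 (Gsk3b) to 1.52 (Scube2).

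Markers of the lung's cell types moved with pressure too, in a comparison where 26.1% of all 14937 genes tested were called. Of 17 epithelial markers, among them Epcam, Cdh1 and Nkx2-1, 16 were higher and 0 lower at high pressure, and their summed level was 2391 to 2499 CPM at high pressure, against 1145 to 1323 CPM at low pressure. The 16 mesenchymal markers split into 3 higher, 5 lower and 8 not passing (summed 10851 to 13289 CPM at high pressure, against 8781 to 10340 CPM at low pressure), and the 10 smooth muscle markers into 2 higher, 2 lower and 6 not passing (1073 to 1210 CPM, against 771 to 1107 CPM). Of 10 endothelial markers 3 were lower and 0 higher (115 to 266 CPM at high pressure, against 261 to 424 CPM at low pressure). No marker of these 4 lists was at 0 in any library, so every library carried the defining transcripts of lung epithelium, mesenchyme, smooth muscle and endothelium. Of the markers of other cell types tested, 2 of 6 mesothelial and 2 of 8 leukocyte markers were higher, 1 of 5 erythroid markers was lower, and 0 of 9 striated muscle and 0 of 8 neural and glial markers passed. The part of these shifts, and of the differing ribosomal share, in the changes of the hedgehog genes was not tested.

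Levels were also set beside tissue markers, those of the epithelium for Shh and those of the mesenchyme for the 8 other genes. The log2 level of Shh minus the mean log2 level of the epithelial markers was -0.98, -1.09 and -1.32 at high pressure, against -0.12, -0.03 and -0.07 at low pressure. Shh was thus lower relative to these markers in all 3 high pressure libraries, although its CPM overlapped between the groups. The mean log2 level of the epithelial markers themselves was 6.82, 6.87 and 6.85 at high pressure, against 5.97, 5.79 and 5.99 at low pressure. Any gene at equal CPM in both cultures would differ from these markers in the same way. Relative to the mesenchymal markers, Ptch1 stood at 0.33, -0.32 and 0.03 at high pressure, against 0.98, 1.09 and 0.56 at low pressure. Gli3 stood at -0.12, -0.46 and -0.38 at high pressure, against 0.58, 0.45 and 0.64 at low pressure. Foxf1 stood at -0.09, -0.29 and -0.25 at high pressure, against 1.41, 1.21 and 0.45 at low pressure. Relative to the mesenchymal markers the groups stayed apart for Ptch1, Gli3 and Foxf1, and likewise for Gli2, at -2.23 to -1.85 at high pressure and -1.48 to -1.38 at low pressure. Gli1 was likewise lower, at -2.69 to -1.998 at high pressure and -1.90 to -1.34 at low pressure, with a narrow gap between the groups. Smo was lower by a narrow gap too, at 0.56 to 0.90 at high pressure and 0.93 to 0.96 at low pressure. Gas1 was higher relative to these markers, at -0.62 to -0.47 at high pressure and -1.29 to -0.78 at low pressure, and Hhip overlapped, at -1.08 to -0.82 at high pressure and -1.06 to -0.70 at low pressure. These differences carry no test, and how many of all genes stayed apart on this scale was not counted.

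**Figure D3:**
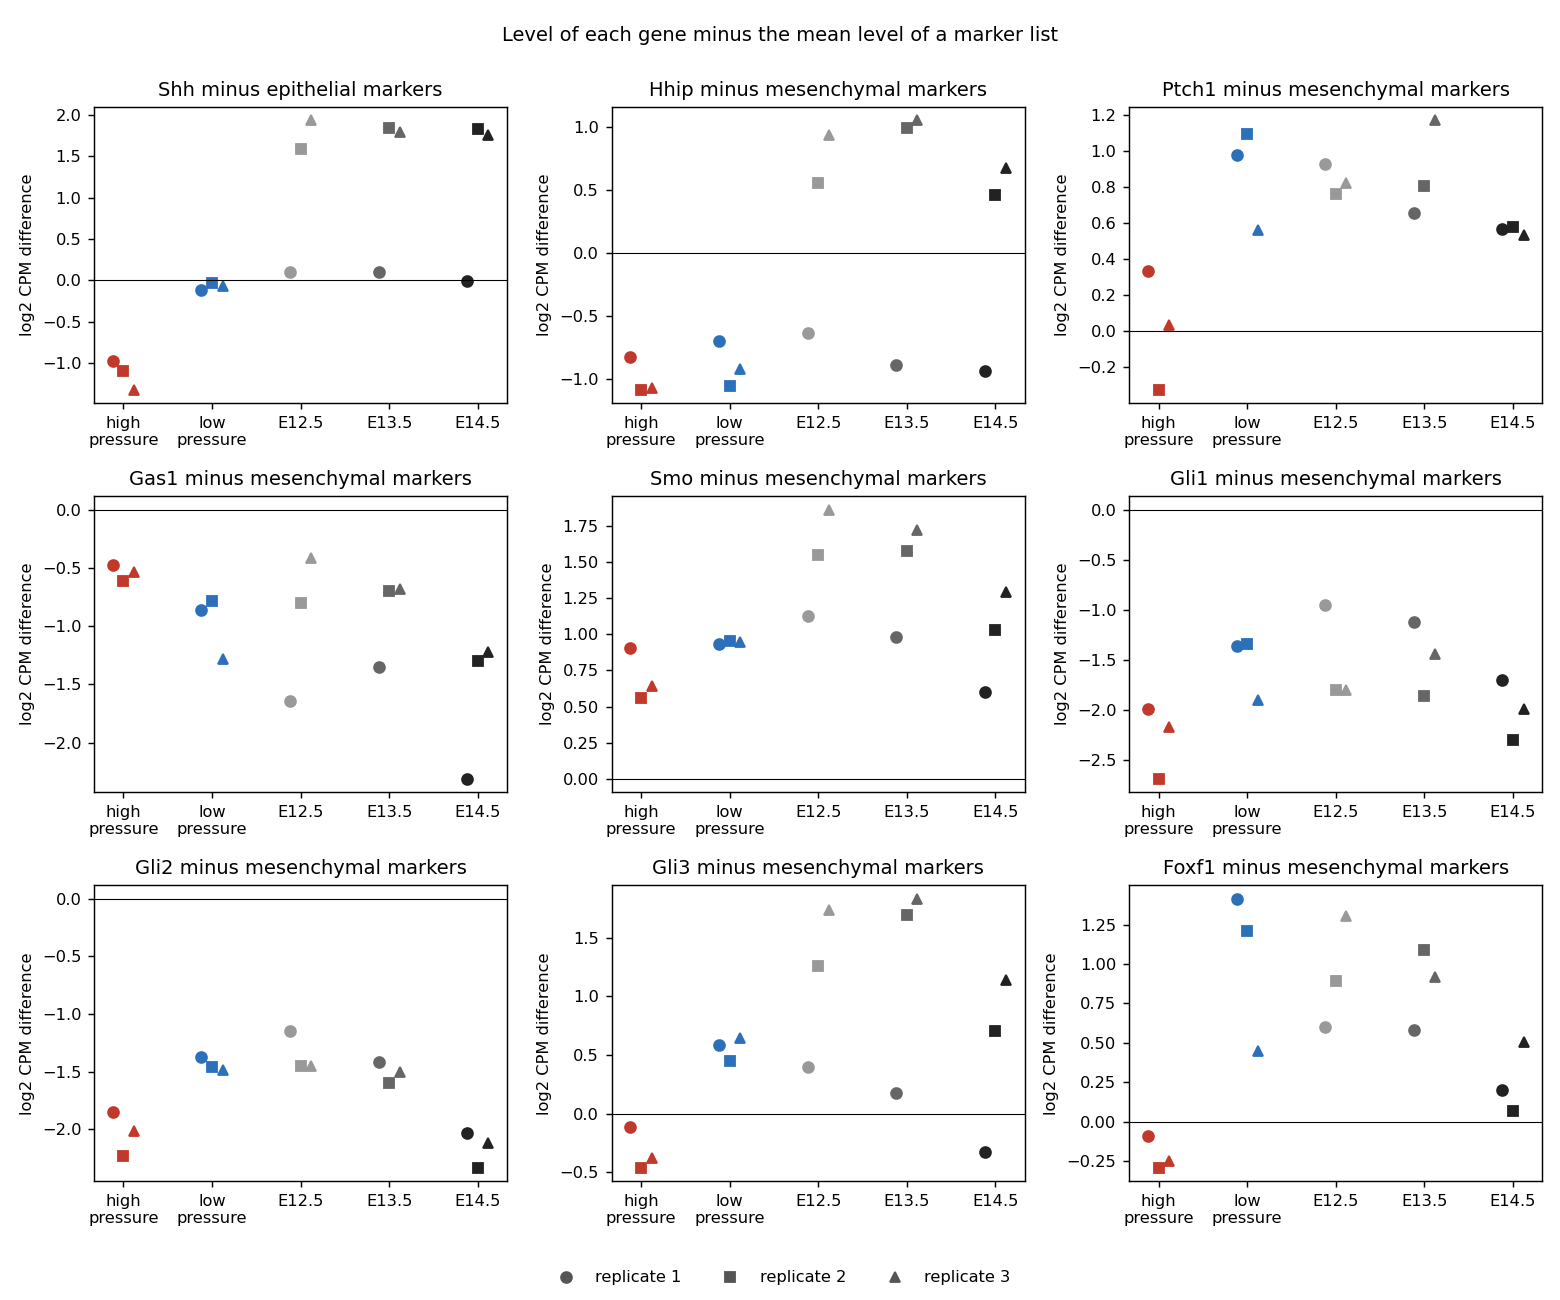
Log2 CPM of Shh minus the mean log2 CPM of 17 epithelial markers, and of the 8 other genes minus that of 16 mesenchymal markers (y axis; the y axes differ in range), by group, 1 point per library with its replicate number as shape. High pressure libraries lie below low pressure libraries in the panels of Shh, Ptch1, Smo, Gli1, Gli2, Gli3 and Foxf1, above them for Gas1 and among them for Hhip. Replicate 1 is the lowest fresh library at each stage in the panels of Shh, Hhip, Gas1, Smo and Gli3, and the highest in those of Gli1 and Gli2.

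The stages E12.5, E13.5 and E14.5 were compared to follow the hedgehog genes over the days in which the cultured lungs were kept. None of the 9 genes passed the edgeR test between any pair of stages, and neither did any other gene (0% of 14242 tested called), although 123 genes at E13.5 against E12.5, 977 at E14.5 against E13.5 and 1328 at E14.5 against E12.5 had an unadjusted p under 0.05. Without each library in turn this count stayed at 0 except at E14.5 against E12.5 without replicate 2 of E14.5 (3 genes), while without replicate 1 of all 3 stages it was 62 at E14.5 against E13.5 and 1119 at E14.5 against E12.5. DESeq2 called 270 genes at E14.5 against E13.5 and 457 at E14.5 against E12.5, none of them among the 9. Libraries with the same replicate number deviated together at all stages, so a fit with the replicate number as a block was set beside the first. The labels give no pairing of the libraries, and the block assumes that the numbers pair them. Deviations were taken from each stage's mean, so replicate 1 standing apart gives replicates 2 and 3 a shared deviation. Whether replicates 2 and 3 pair across stages was thus not tested. In that fit 1 gene differed at E13.5 against E12.5 (0.00702%), 6.01% of genes differed at E14.5 against E13.5, and 11.0% at E14.5 against E12.5. These backgrounds, 856 and 1561 genes, moved to 77 to 1296 and 435 to 1977 genes when each library was left out of the blocked fit, the lowest without replicate 2 of E13.5 and replicate 2 of E12.5.

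Shh had 57.8, 108 and 108 CPM in replicates 1, 2 and 3 of E12.5, 51.4, 119 and 113 CPM at E13.5, and 65.9, 114 and 132 CPM at E14.5. Replicate 1 lay at about the same low level at every stage. Within each replicate number Shh was higher at E14.5 than at E12.5, by 0.19 on the log2 scale in the blocked fit (SE 0.09, adjusted p = 0.176). Hhip had 82.4, 157 and 174 CPM at E12.5, 74.2, 208 and 211 CPM at E13.5, and 85.8, 193 and 200.5 CPM at E14.5. It showed the same split between replicate 1 and the other replicates, and its E14.5 against E12.5 value in the blocked fit was 0.19 (SE 0.09, adjusted p = 0.225).

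Ptch1 had 243, 181 and 159.7 CPM at E12.5, 216, 182 and 228 CPM at E13.5, and 242, 209 and 182 CPM at E14.5. The stages overlapped, and no order of stages held in all replicates. Gas1 had 40.8, 61.3 and 67.9 CPM at E12.5, 53.8, 64.3 and 63.3 CPM at E13.5, and 32.9, 56.7 and 53.7 CPM at E14.5. It was lowest at E14.5 in each replicate number, and its log2 fold change at E14.5 against E12.5 in the blocked fit was -0.25 (SE 0.11, adjusted p = 0.154). Smo had 279.6, 312 and 329 CPM at E12.5, 271, 312 and 336 CPM at E13.5, and 249, 286 and 308 CPM at E14.5. The Smo libraries kept the same order of replicates at every stage, and all 3 were lowest at E14.5 (-0.13 against E12.5 in the blocked fit, SE 0.06, adjusted p = 0.19).

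Of the Gli genes, Gli1 had 66.1, 30.6 and 25.9 CPM at E12.5, 63.0, 28.6 and 37.4 CPM at E13.5, and 50.3, 28.2 and 31.4 CPM at E14.5. Here replicate 1 was the high library at each stage, opposite to Shh and Hhip. Gli2 had 57.5, 38.9 and 33.0 CPM at E12.5, 51.3, 34.5 and 35.9 CPM at E13.5, and 39.9, 27.6 and 28.9 CPM at E14.5. Within each replicate number Gli2 was lowest at E14.5. It was lower at E14.5 than at E12.5 by the blocked fit (-0.41, SE 0.09, edgeR adjusted p = 0.0184), a call that 3.63% of genes shared in that direction, while without the block the value was -0.43 (SE 0.26, adjusted p = 0.823). The blocked call for Gli2 was lost without replicate 1 (-0.36, adjusted p = 0.0518) or 2 of E12.5 (-0.36, adjusted p = 0.0992), or replicate 1 (-0.37, adjusted p = 0.0871) or 2 of E14.5 (-0.40, adjusted p = 0.0612).

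Gli3 had 168, 256 and 300.4 CPM at E12.5, 155, 337 and 362 CPM at E13.5, and 130.4, 227 and 276 CPM at E14.5. Replicate 1 was the low library, as for Shh, and all 3 replicates were lowest at E14.5. Gli3 was lower at E14.5 than at E13.5 by the blocked fit (-0.41, SE 0.09, edgeR adjusted p = 0.0246), against 1.86% of genes called lower there, and without the block the value was -0.43 (SE 0.39, adjusted p = 1). The blocked call for Gli3 was lost without any 1 of replicates 2 and 3 of E13.5 or replicates 1, 2 and 3 of E14.5, with adjusted p-values of 0.0668 to 0.164. No member passed the test of whether the second day's change differed from the first day's, in either fit (0% of genes called without the block and 0.0211% with it).

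Foxf1 had 194, 199 and 224 CPM at E12.5, 205, 222 and 192 CPM at E13.5, and 188, 146 and 178 CPM at E14.5. The E14.5 libraries of Foxf1 lay below all of both earlier stages, as did 5.33% of genes at E14.5 against E12.5 and 4.14% at E14.5 against E13.5. The log2 fold change was -0.27 at E14.5 against both E12.5 and E13.5 (SE 0.15 each, edgeR adjusted p = 0.724 and 0.917), and -0.27 and -0.28 with the block (SE 0.10 each, adjusted p = 0.113 and 0.134). Foxf1 was lower in 3 of 3 replicate numbers in both comparisons, and neither passed the test. Between E13.5 and E12.5 the blocked log2 fold changes of the 9 genes lay between -0.08 and 0.19, and for each gene the libraries of these stages overlapped (3.10% of genes did not overlap).

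Of the other lists, Scube2 rose by 1.15 and Scube3 fell by 0.85 at E14.5 against E12.5 in the blocked fit (edgeR adjusted p = 0.0364 and 0.00638), and the 24 other pathway genes tested did not pass. Among the 13 further targets Foxf2 rose by 0.53 and Mycn fell by 0.59 (edgeR adjusted p = 0.0487 and 0.00939). The blocked fit called 11.0% of all genes in this comparison, and without the block no gene of either list passed. Markers of striated muscle also differed between the stages, with 6 of 9 higher at E14.5 than at E12.5 in the blocked fit and a summed level of 638 to 2582 CPM at E14.5, against 14.3 to 87.0 CPM at E12.5. Of 10 endothelial markers 7 were higher there, with 825 to 1066 CPM at E14.5, against 525 to 762 CPM at E12.5. Their part in the stage differences of Gli2, Gli3 and Foxf1 was not tested.

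**Figure D4:**
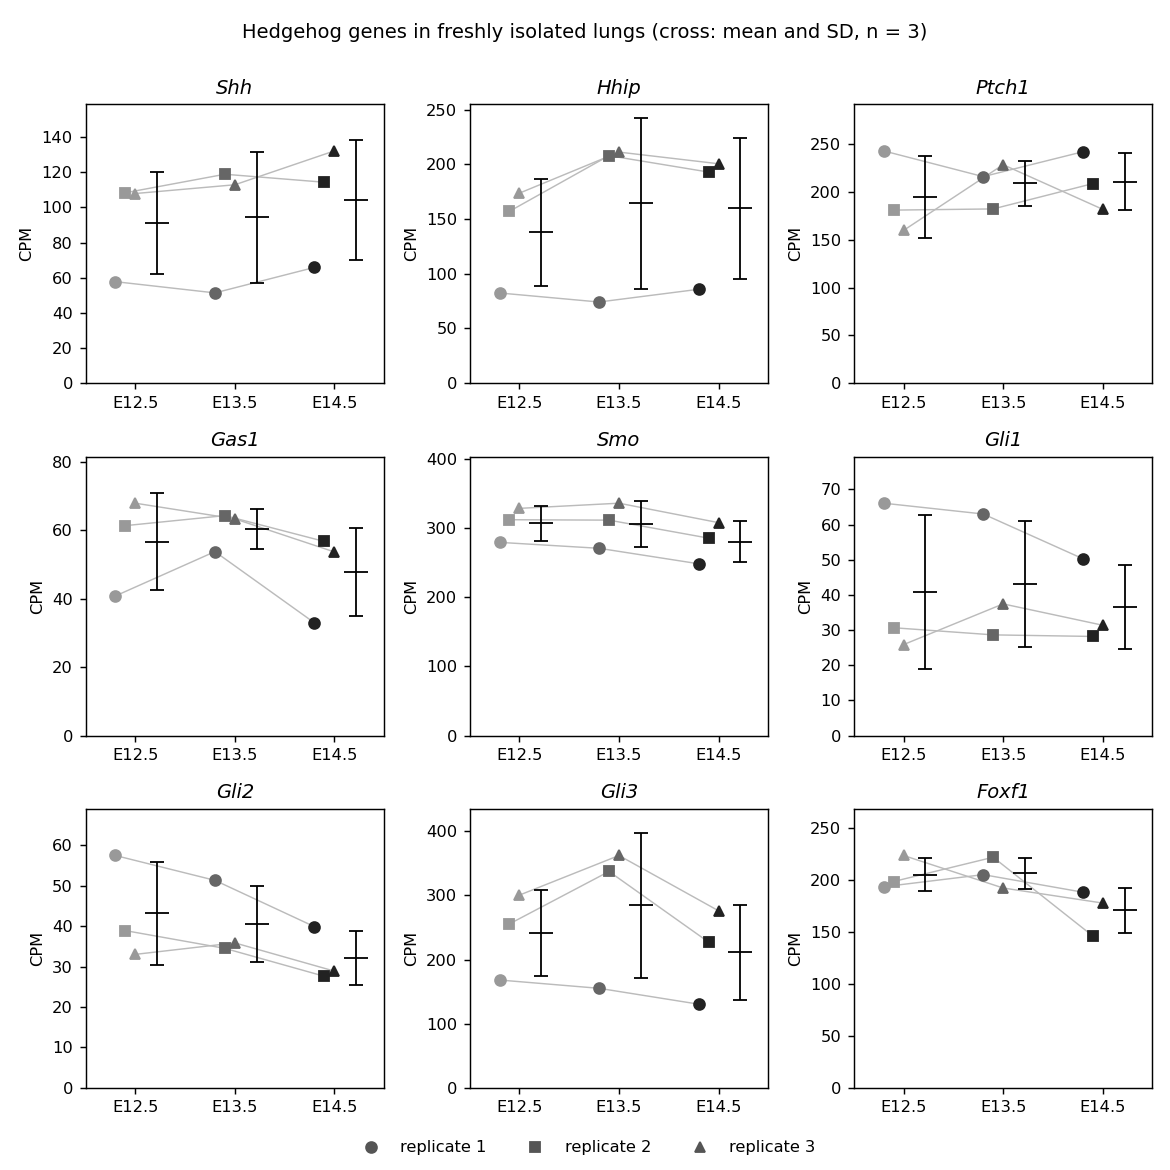
Level of each hedgehog gene in freshly isolated lungs (y axis, CPM from 0) of the 3 stages (x axis); grey lines join libraries with the same replicate number, and crosses with bars give the mean and SD of 3. Replicate 1 (circles) is the low library for Shh, Hhip and Gli3 and the high one for Gli1 and Gli2, and Gli2 and Gli3 are lowest at E14.5 in each replicate.

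Each culture was also set beside the E12.5 lungs, the stage at which the cultured lungs were explanted, in 1 fit of all 15 libraries. Culture, deposited table and any batch of libraries cannot be told apart here, and both comparisons share the E12.5 libraries. At high pressure Gas1 was higher and Foxf1 lower than at E12.5 (background 43.6% of 14940 genes called, 22.3% higher and 21.3% lower), and at low pressure Foxf1 and Ptch1 were higher (background 32.5%, with 17.6% higher and 14.9% lower). The members' shares, 2 of 9 in each comparison, lay below these backgrounds.

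Foxf1 averaged 147 ± 4.83 CPM at high pressure and 348 ± 76.6 CPM at low pressure on the scale of all 15 libraries, against 206 ± 18.8 CPM at E12.5 (SD, n = 3 each). The E12.5 mean thus lay between those of the cultures. Against E12.5 the log2 fold change was -0.49 at high pressure (SE 0.16, edgeR adjusted p = 0.028) and 0.75 at low pressure (SE 0.16, edgeR adjusted p = 0.00358). The high pressure call for Foxf1 was lost without any 1 of the 3 high pressure libraries or without replicate 2 or 3 of E12.5 (-0.51 to -0.41, adjusted p = 0.0587 to 0.103).

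Ptch1 averaged 173 ± 23.4 CPM at high pressure and 309 ± 34.5 CPM at low pressure, against 195 ± 39.8 CPM at E12.5 (SD, n = 3 each). High pressure and E12.5 libraries overlapped (-0.17, SE 0.17, edgeR adjusted p = 0.446), while Ptch1 was higher at low pressure (0.67, SE 0.17, edgeR adjusted p = 0.0101). Gas1 averaged 117 ± 7.74 CPM at high pressure and 85.5 ± 8.497 CPM at low pressure, against 57.0 ± 15.01 CPM at E12.5 (SD, n = 3 each). The Gas1 means of both cultures lay above the E12.5 mean. The Gas1 log2 fold change was 1.04 at high pressure (SE 0.22, edgeR adjusted p = 0.00224) and 0.59 at low pressure (SE 0.22, edgeR adjusted p = 0.0566). Without each library in turn it ran from 0.84 to 1.195 at high pressure and from 0.39 to 0.74 at low pressure. The 0.74, without replicate 3 of E12.5, had an edgeR adjusted p of 0.0419. Replicate 1 of E12.5 had 40.2 CPM of Gas1, against 62.0 and 68.9 CPM in replicates 2 and 3.

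For Shh, Hhip, Gli1, Gli2 and Gli3 the comparison with E12.5 turned on replicate 1. On the scale of all 15 libraries Shh had 46.0 to 60.4 CPM in the 6 cultured libraries, against 50.6 to 64.9 CPM in replicate 1 of the 3 stages and 109 to 133 CPM in replicates 2 and 3. Cultured Shh levels thus overlapped those of replicate 1 and lay well below the other fresh libraries. Hhip showed the same, with 78.3 to 101 CPM in the cultured libraries, 73.1 to 84.5 CPM in replicate 1 and 159 to 215 CPM in replicates 2 and 3. Gli1 ran the other way, with 49.5 to 65.0 CPM in replicate 1 and 26.3 to 38.1 CPM in replicates 2 and 3; low pressure libraries, at 51.0 to 64.2 CPM, lay near replicate 1, and high pressure libraries, at 28.3 to 39.6 CPM, near replicates 2 and 3.

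With a term for replicate 1 in the fit, chosen with this split known, 6 of 9 genes differed between high pressure and E12.5 (background 66.5% of genes called, 34.4% higher and 32.1% lower), and 7 of 9 between low pressure and E12.5 (background 58.3%, 30.3% higher and 28.0% lower). The members' share at high pressure was close to that of all genes. Shh then fell by 1.08 at high pressure (edgeR adjusted p = 2.94e-07) and by 0.96 at low pressure (edgeR adjusted p = 1.94e-06), against -0.80 (adjusted p = 0.0676) and -0.68 (adjusted p = 0.134) without the term. Hhip fell by 1.04 and 0.96 (edgeR adjusted p = 9.02e-07 and 3.89e-06), against -0.70 and -0.61 without it (adjusted p = 0.176 and 0.263). Gli3 fell by 1.12 at high pressure (edgeR adjusted p = 2.35e-06), against -0.83 (adjusted p = 0.0581) without the term. At low pressure Gli1 rose by 0.93 and Gli2 by 0.73 with the term (edgeR adjusted p = 0.000136 and 1.86e-05), against 0.51 and 0.52 without it (adjusted p = 0.285 and 0.0716). Without each library in turn, and without the term, Gli1 at low pressure ran from 0.27 to 1.02 and Gli2 from 0.37 to 0.76, both called only without replicate 1 of E12.5 (edgeR adjusted p = 0.0265 and 0.0121). What sets replicate 1 apart from the other fresh libraries is not given in the labels, and the larger calls assume that the term removes it. The term marked replicate 1 of the fresh stages alone, so every culture was set against the level of the other E12.5 libraries. Yet Shh and Hhip in both cultures, Gli3 at high pressure and Gli1 at low pressure lay near replicate 1. Their calls with the term thus rest on this coding, and whether the cultures share what sets replicate 1 apart was not tested.

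**Figure D5:**
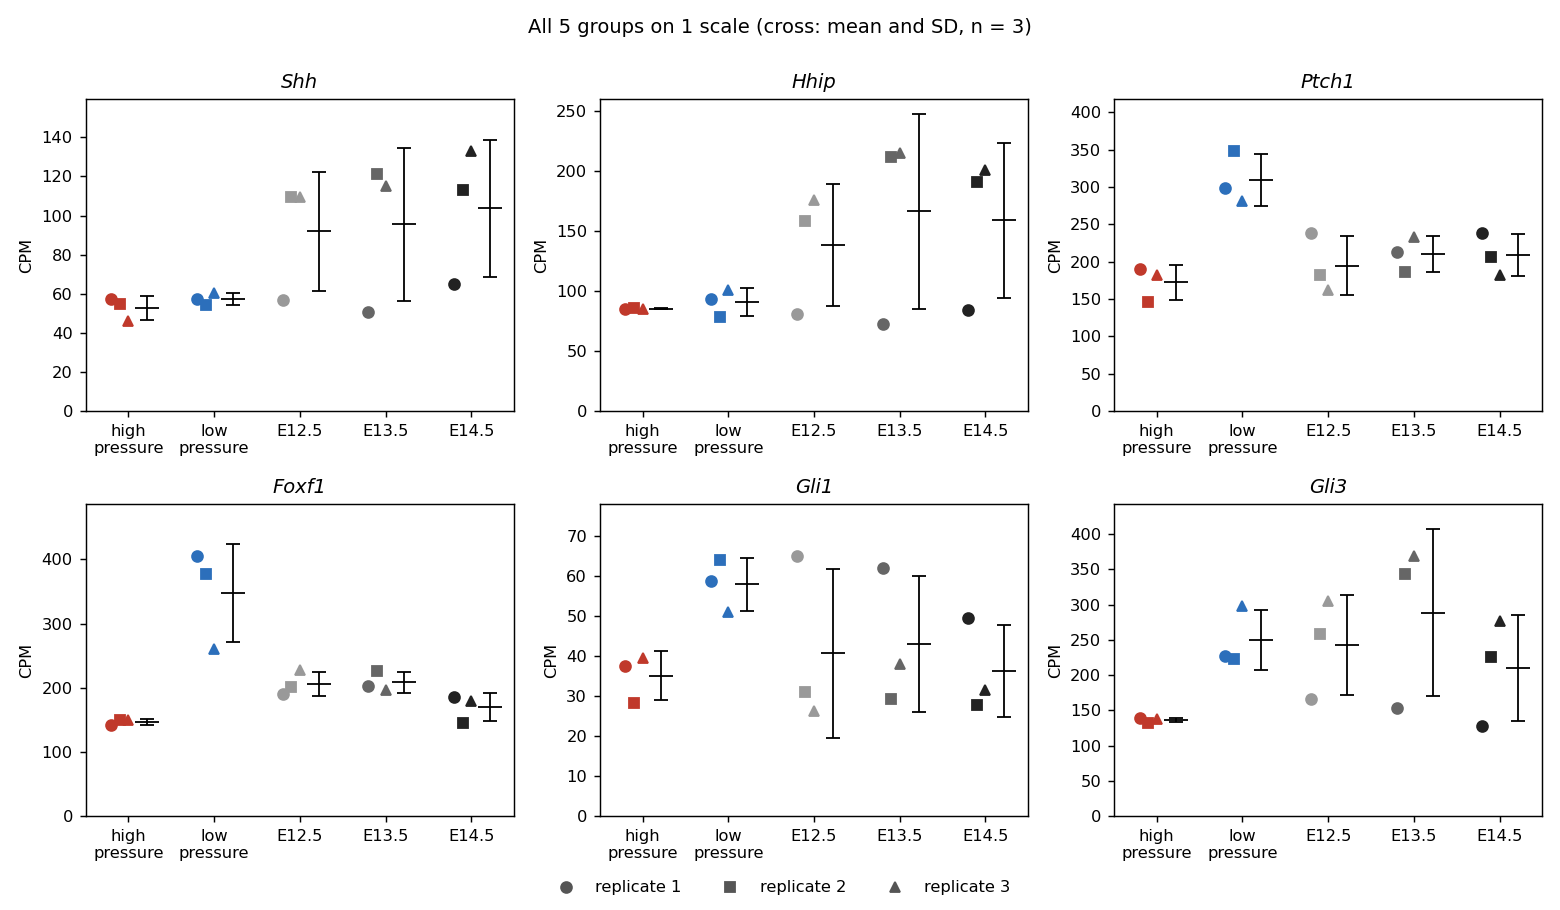
Level of 6 hedgehog genes in all 5 groups on the scale of the 15 libraries (y axis, CPM from 0; points are libraries with the replicate number as shape; crosses with bars, mean and SD of 3). Foxf1 at E12.5 lies between high and low pressure, and the Shh and Hhip levels of the cultured libraries lie beside replicate 1 of the fresh stages.

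Levels were compared between genes as CPM per kilobase of annotated exon. At high pressure Foxf1 was highest of the 9 (60.9 ± 1.999 CPM per kb), followed by Smo (49.2 ± 1.09), Gas1 (39.5 ± 2.61) and Shh (18.5 ± 2.09), and Gli2 (6.05 ± 0.376) and Gli1 (7.04 ± 1.21) were lowest (SD, n = 3). At low pressure Foxf1 stood at 144 ± 31.7 CPM per kb, followed by Smo at 57.8 ± 7.16, and Gli2 was again lowest at 9.01 ± 0.791 (SD, n = 3). At E12.5 Foxf1 (85.3 ± 7.80 CPM per kb), Smo (54.8 ± 5.33), Shh (32.3 ± 10.7) and Gli3 (25.3 ± 7.41) stood highest, and Gli1 (8.16 ± 4.24) and Gli2 (6.28 ± 1.75) lowest (SD, n = 3). Shh and Gli3, neighbours in that order, had means closer than their SDs, and the means of Gli1 and Gli2 were closer than the SD of Gli1. Within each of the 3 E12.5 libraries, however, Shh was above Gli3 and Gli1 above Gli2. Across groups Foxf1 ran from low pressure through E13.5 (86.2 ± 6.68 CPM per kb), E12.5 and E14.5 (70.3 ± 9.02) to high pressure, with the E13.5 and E12.5 levels within each other's SD.

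Likeness to Shh and to Gli1 was measured as Pearson's r of log2 levels over the 15 libraries. Among 11143 genes averaging 5 CPM or more, those most like Shh were Tcaim (r = 0.98), Esco2 (r = 0.98), Znrf2 (r = 0.98), Zmpste24 (r = 0.98) and Rad21 (r = 0.98). Those most like Gli1 were Tshz2 (r = 0.95), Actn1 (r = 0.94), Tox4 (r = 0.94), 9030624J02Rik (r = 0.92) and Hic1 (r = 0.92). These values are a description over 15 libraries that share groups, tables and the split of replicate 1, and for Shh the libraries fall into separate clusters along that split.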

How the data were processed

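Whole embryonic mouse lungs were profiled by RNA sequencing in 15 libraries, grouped by the labels. The submitters' processing notes name cutadapt 1.6, Bowtie 1.1.1, TopHat, HTSeq and build mm10, and state neither the annotation nor the strand setting. Raw counts of 23420 genes, as the authors deposited them in a table of cultured and a table of fresh lungs, entered every test; normalized and log2 tables were not used here. With R 4.3.3, edgeR 4.0.16 (TMM scaling, filterByExpr, robust quasi-likelihood fit, limma 3.58.1 beneath) tested each comparison over all genes passing the filter, with Benjamini-Hochberg adjustment and a threshold of 0.05. All 9 members passed the filter. Levels are TMM-scaled CPM computed from the counts, on each table's own scale unless all 15 libraries are named. The fold change SE is its size over the root of the F statistic. The script was tested on simulated data.

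Alternatives were DESeq2 1.42.0, its size factor scaling (RLE), no low count filter, GC content and length offsets (splines; 99.4% of tested genes had values), a replicate block, a term for replicate 1, all 15 libraries in 1 fit, and each library left out. Same-numbered fresh libraries deviated together (r = 0.40 to 0.84 over 9 pairs, against -0.74 to 0.63 over 18 pairs with different numbers). There the numbers were taken to pair them, although the ranges overlap and the labels give no pairing. Within stages replicate 1 differed from replicates 2 and 3 by a chi-square per gene of 112 to 184. Between replicates 2 and 3 it was 7.51 to 19.1. Whether replicates 2 and 3 match across stages was not tested. In culture same-numbered libraries did not deviate together (r = -0.01 to 0.05 over 3 pairs). Replicates within groups differed by more than sampling noise (chi-square per gene 7.51 to 183.7 over 15 pairs). Named were all 9 members, every listed pathway or target gene passing between the pressures (1 listed gene is not reported here and was left out of its list's counts), and the 5 genes most like Shh and Gli1. Members and lists were chosen with earlier results of these data known. Promoters came from RefSeq (GRCm38.p6) and positions from GENCODE M21, which matched 23074 genes. Expression of single cells and proteins was not measured.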

Additional observations from a re-analysis of the deposited data

How the results depend on the processing

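Between high and low pressure Foxf1, Ptch1, Gli1, Gli2 and Gli3 kept their direction and call under each alternative tried except the fit of all 15 libraries, in which 2 members (Foxf1 and Ptch1) were called and 1121 genes against 3905; with a term for replicate 1 of the time series, added after seeing the data, 5807 were. Without each library in turn 5 to 6 members and 1894 to 6257 genes were called there (2411, 1894 and 2016 without replicates 1, 2 and 3 of high pressure, 6257 without replicate 3 of low pressure). The replicate block, whose numbers do not pair the cultured libraries, left 6 members and 3137 genes called, and of the further targets 1 higher and 6 lower. Hhip turned to 0.28 with GC content and length offsets.

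Between stages the numbers were taken to pair the libraries. There the replicate block called 1 member at E14.5 against E13.5 and 1 at E14.5 against E12.5, where the fit without it called 0. The term for replicate 1 also called 1 and 1, as did the block with GC content and length offsets. Genes called were 0 without the block, and 1, 856 and 1561 with it at E13.5 against E12.5, E14.5 against E13.5 and E14.5 against E12.5 (0 to 41, 77 to 1296 and 435 to 1977 leaving out each library); 3 differed between the 2 daily steps with it (4 by DESeq2). With no low count filter 9 genes were called at E14.5 against E12.5. Leaving out each library, without the block or with it (the second added after seeing the data), 0 to 3 members were called at E14.5 against E13.5, the 3 without replicate 3 of E12.5, and 0 to 1 at E14.5 against E12.5. There the fold changes ran from -0.055 to 0.43 for Shh, -0.050 to 0.51 for Hhip, -0.46 to 0.37 for Gli1, -0.0086 to 0.31 for Ptch1 and -0.43 to 0.059 for Gli3, and Gli1 had 0.074 without replicate 1 of all 3 stages and, with the block, 0.036 and 0.017 without replicate 1 of E12.5 and of E14.5.

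Against E12.5, the term for replicate 1 gave 6 members at high pressure and 7 at low pressure (9936 genes against 6508, and 8704 against 4857), turning Gli1 to 0.21 and Gli2 to 0.16 at high pressure and Smo to -0.011 and Gli3 to -0.25 at low pressure. DESeq2 called 4 members at high pressure, Shh and Gli3 being added. The share of all genes that DESeq2 called there was not set beside this count. Without each library 1 to 4 members were called at high pressure and 2 to 5 at low pressure, the 4 and 5 without replicate 1 of E12.5. Of all genes, 4947 to 6988 were called at high pressure and 3454 to 4988 at low pressure in these fits. At high pressure fold changes ran from -0.29 to 0.0024 for Ptch1, -0.45 to 0.30 for Gli1 and -0.21 to 0.19 for Gli2. At low pressure they ran from -0.024 to 0.15 for Smo and -0.18 to 0.23 for Gli3. The causes were not tested. With 3 pools a group, the spread between pools limits the precision.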
